A study of Cavia porcellus with 34 samples.

Results

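The third generation (F3) of a guinea pig study of prenatal synthetic glucocorticoid (sGC) exposure is described here, as the contrast between F3 sGC and F3 vehicle (Veh) in the paraventricular nucleus (PVN) of the hypothalamus. Of the 34 libraries of the series, 12 belonged to this contrast, 6 Veh and 6 sGC, and they were chosen by generation and by the treatment label alone. Of 12068 genes in the F3 table, the 11866 with a mean of at least 10 over the 12 animals were tested. The animals were juvenile females of the paternal line (Cavia porcellus), killed on postnatal day 40. Neither F3 group was treated. Pregnant F0 females had received sGC (labelled Beta) or vehicle (labelled Control), and the line was then continued through males. Each library came from a micro-punch of the anteromedial hypothalamus that held the PVN and, by the study's methods, could also hold adjacent hypothalamic regions. The F1 and F2 generations of the same line (5 Veh and 5 sGC each) are used only where the F3 effect was compared with theirs.

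The PVN is the hypothalamic nucleus at the head of the hypothalamic-pituitary-adrenal (HPA) axis. Its parvocellular neurons release corticotropin-releasing hormone (CRH), which acts with vasopressin (AVP) on the pituitary to drive cortisol secretion, and its magnocellular neurons send vasopressin and oxytocin (OXT) to the posterior pituitary. Glucocorticoids close the loop by acting on the glucocorticoid receptor, encoded by NR3C1, in these neurons. The nucleus lies along the wall of the third ventricle and is richly supplied with small vessels, so that ependymal cells, astrocytes, microglia and vessel wall cells are taken with the neurons in a punch.

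The deposited values are read counts per gene that the authors corrected and rounded, called normalized counts here. Their totals per animal, in units of 1000000, were 18.82 ± 0.0736 in Veh and 18.84 ± 0.108 in sGC (SD, n = 6 each, range 18.69 to 18.98), a difference within the spread between animals (exact permutation test, two-sided, p = 0.686). Genes that define the nucleus were present in both groups. The transcription factor SIM1, which PVN neurons need to form, averaged 1044 ± 224 in Veh and 960 ± 152 in sGC, and OTP, a factor of the same lineage, 1804 ± 545 and 1779 ± 486 (SD, n = 6 each). The 9 tested genes of the PVN list summed to between 18560 and 22876 in Veh and between 18060 and 20845 in sGC. RGS4 and PEG3, which are not specific to the lineage, were among the 9. PEG3 alone averaged 4151 in Veh and 3747 in sGC. sGC SGM21 and sGC SGM22 were sequenced in a second batch with repeat libraries of Veh SGM5 and Veh SGM9, which are not in the table compared here, and the authors corrected for batch before deposit. sGC SGM21 stood apart on the first principal component (26.6% of the variance), at 19.73 against -11.14 to 7.19 in the other 11 animals. In bulk tissue, fewer cells of a type and less RNA per cell cannot be told apart.

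Between F3 sGC and F3 Veh, 6 genes passed (limma on log2(value + 1), Benjamini-Hochberg adjusted p under 0.05, 0.0506% of the genes tested). SDCBP2 was higher in sGC (0.00843% of genes rose) and SV2C, EPHA7, KIAA1024, ANKS1A and SCN9A were lower (0.0421% fell). All fold changes are differences of log2(value + 1) between group means, so those of genes with low values come out too small. None of the 6 genes overlapped between the groups, as is seen in the plot of these genes by animal, where both animals of the second batch lay with the other sGC animals and apart from Veh.

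**Figure D1:**
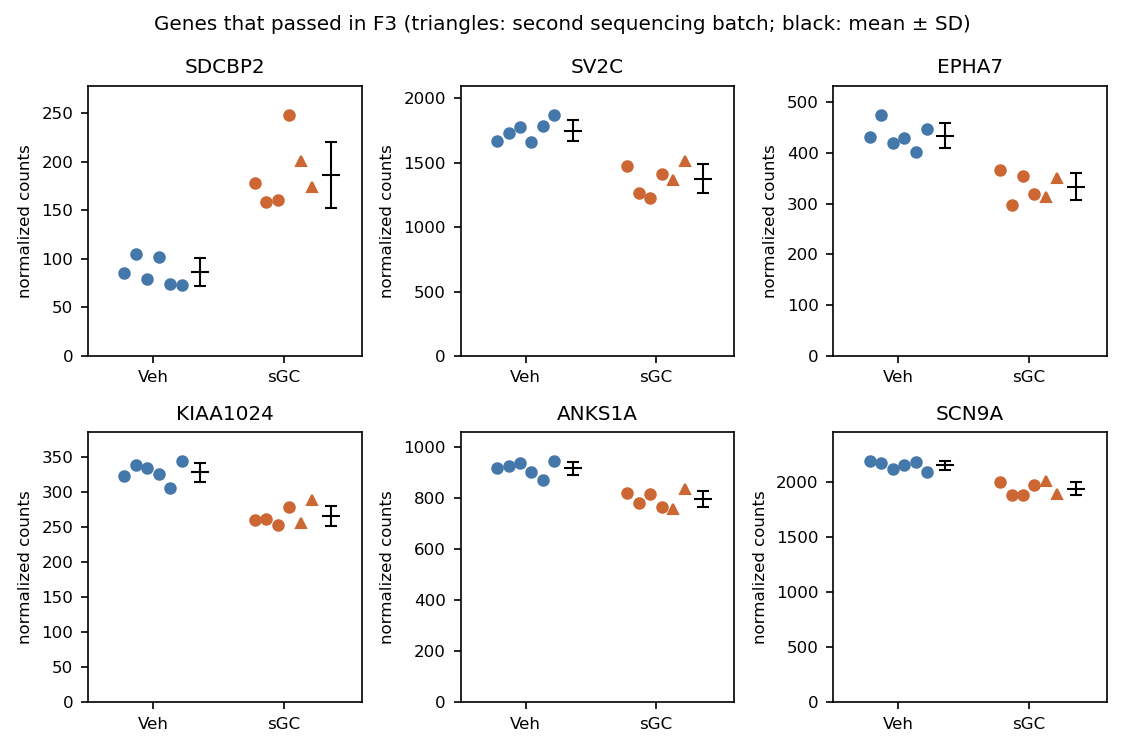
Normalized counts (vertical axes, from 0) of the 6 genes that passed in F3, in each of 6 Veh (blue) and 6 sGC (orange) animals, with circles for the first and triangles for the second sequencing batch and the mean ± SD in black. In SDCBP2 the sGC animals lay between 158 and 248 and the Veh animals between 73 and 105, and in the other 5 genes every sGC animal lay below every Veh animal.

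SDCBP2 encodes syntenin-2, a PDZ domain adaptor of the plasma membrane that is related to the syndecan binding protein syntenin-1. Its lowest, median and highest values were 73, 82 and 105 normalized counts in Veh and 158, 176 and 248 in sGC. SDCBP2 thus rose to more than the highest Veh value in 6 of 6 sGC animals, with a log2 fold change of 1.10 (95% interval 0.84 to 1.36). The gene passed under all 22 alternative settings, with a fold change between 1.01 and 1.16 and an adjusted p-value of at most 0.0466 (limma). It had a log2 fold change of 1.09 in the first batch alone. Of the 8 tested syntenins, syndecans and partners, 2 were higher and 1 lower at an unadjusted p under 0.05, against 6.19% and 6.92% of all genes. SDCBP2 itself is counted among the 2 higher, and the lists were chosen with earlier results of these data known. SDC2, the syndecan with the next smallest p-value, had a log2 fold change of 0.10 (SE 0.03, limma, adjusted p = 0.205).

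SV2C encodes a synaptic vesicle glycoprotein. Its normalized counts ran from 1665 through a median of 1753.5 to 1872 in Veh, and from 1224 through 1387.5 to 1512 in sGC. The gene fell by 0.35 on the log2 scale (SE 0.05, limma, adjusted p = 0.0305), and all 6 sGC animals were below the lowest Veh animal. It was also the gene that passed beside SDCBP2 in the first batch alone (0.0169% of genes), where its fold change was -0.38.

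EPHA7, a receptor tyrosine kinase for the A-type ephrins that guide axons, had a lowest, median and highest value of 401, 431 and 475 in Veh and 298, 335 and 367 in sGC (log2 fold change -0.38, SE 0.06, limma, adjusted p = 0.0305). ANKS1A, an adaptor with ankyrin repeats that binds Eph receptors, ran from 872 through 920 to 943 in Veh and from 758 through 798.5 to 834 in sGC (log2 fold change -0.20, SE 0.03, limma, adjusted p = 0.0378). Both genes fell without overlap between the groups. KIAA1024 fell from 306, 330 and 344 to 253, 261.5 and 289 (log2 fold change -0.30, SE 0.05, limma, adjusted p = 0.0305). SCN9A, which encodes a voltage-gated sodium channel, had the smallest change of the 6, from 2090, 2162.5 and 2188 in Veh to 1886, 1935 and 2006 in sGC (log2 fold change -0.15, SE 0.02, limma, adjusted p = 0.0472). Its range was narrow in both groups, with an SD of 38.4 and 58.0 on means of 2151 and 1941.

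The calls of the 5 lower genes depended on settings that left their direction in place. When the 2 directions missing from the residuals of the deposited values, taken to be those removed by the normalization, were entered as covariates, 1 gene passed, SDCBP2 (limma, adjusted p = 0.0221), and the adjusted p-values of the 5 lower genes ran from 0.1545 for SV2C to 0.279 for SCN9A. Leaving out 1 animal at a time gave between 1 gene (without Veh SGM1, SGM5, SGM9 or SGM13, or without sGC SGM6 or SGM21) and 15 genes (without sGC SGM18).

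Across all genes the differences were small. The median log2 fold change was -0.0016, and the 5th and 95th percentiles were -0.17 and 0.14. At an unadjusted p under 0.05 there were 1556 genes (13.1%), of which 735 were higher (6.19%) and 821 lower (6.92%). Of these, 66 had an adjusted p under 0.1 (0.556%), 19 of them higher (0.16%) and 47 lower (0.396%). No overlap between the groups was seen for 144 genes (1.21%), 69 higher (0.581%) and 75 lower (0.632%). A fold change over 1.5 in either direction was seen for 53 genes (0.447%), 40 of them lower, as shown in the plot of fold change against level.

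**Figure D2:**
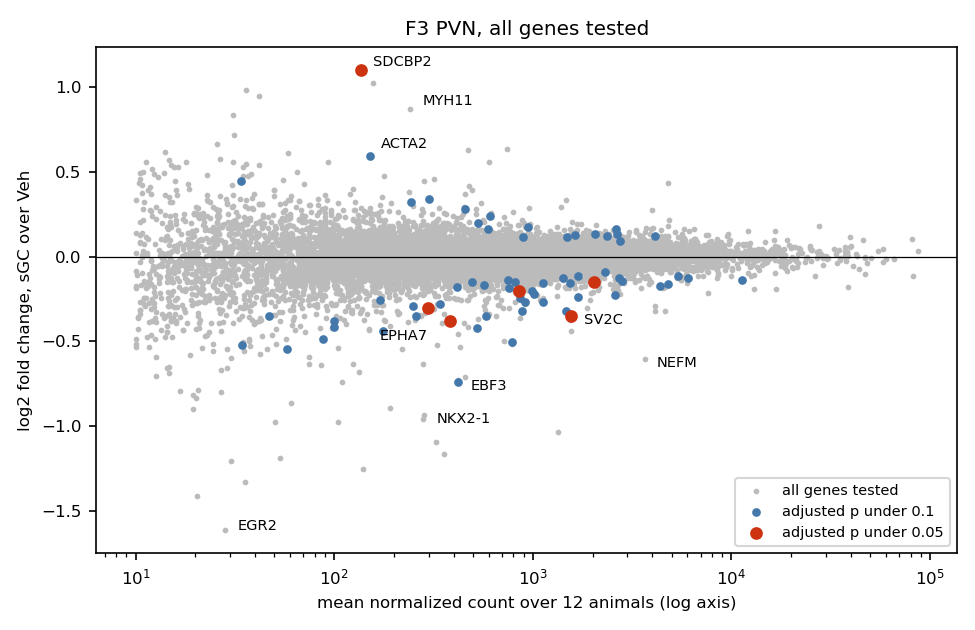
Log2 fold change of sGC over Veh (vertical axis) against the mean normalized count over 12 animals (horizontal log axis) for each of 11866 genes, in grey, with genes at an adjusted p under 0.1 in blue and the 6 genes under 0.05 in red. SDCBP2 lay at 1.10 and passed, and EGR2 lay at -1.61 and did not.

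Of the 11866 genes tested, 53 higher and 65 lower had a mean of at least 50, an unadjusted p under 0.01 and no overlap between the groups. The largest negative fold changes among them that did not pass included transcription factors and membrane proteins of neurons. EBF3, a transcription factor of developing neurons, had a median of 470 normalized counts in Veh (440 to 848) and 305 in sGC (245 to 352), a log2 fold change of -0.74 (SE 0.14, limma, adjusted p = 0.0763). The value of 848 came from Veh SGM17, and without that animal the gene passed (limma, adjusted p = 0.0189). POU3F3, a POU domain factor of neuronal precursors, had medians of 653.5 and 535 (log2 fold change -0.35, SE 0.07, limma, adjusted p = 0.0764). EPS8L2, an actin regulator, had medians of 70 and 47 (log2 fold change -0.55), and EXPH5, an effector of RAB27 in vesicle traffic, had medians of 114 and 85 (log2 fold change -0.42). SORCS1, a sorting receptor, had a log2 fold change of -0.32 and the kinase PIM1 one of -0.38. In each of these genes every sGC animal lay below every Veh animal, because the choice required it.

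ANK1, which encodes the ankyrin that ties membrane proteins to the spectrin skeleton, had normalized counts of 1528 to 1812 in Veh (median 1554) and of 1201 to 1424 in sGC (median 1309), a log2 fold change of -0.32 (SE 0.05, limma, adjusted p = 0.0555). SPTB, the beta-spectrin partner of ankyrin, ran from 1728 through 1775.5 to 2040 in Veh and from 1381 through 1561 to 1703 in sGC (log2 fold change -0.24, SE 0.05, limma, adjusted p = 0.0797). Neither passed, although the groups did not overlap in either gene. Of 18 tested ankyrins, spectrins and protein 4.1 genes, 5 were lower and 0 higher at an unadjusted p under 0.05, against 6.92% and 6.19% of all genes, and the other 3 were EPB41 (-0.13), ANK2 (-0.06) and EPB41L1 (-0.05). The median of the list was -0.02. ANK1 and SPTB had been named by the study from these same animals, so the count of 5 is not independent evidence.

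ST8SIA1, the sialyltransferase that makes the ganglioside GD3, had medians of 277.5 in Veh (260 to 287) and 224.5 in sGC (206 to 245), a log2 fold change of -0.29 (SE 0.05, limma, adjusted p = 0.0565). ST8SIA5, another ganglioside sialyltransferase, had a log2 fold change of -0.23 (SE 0.06, limma, adjusted p = 0.138). Of 21 genes of ganglioside synthesis, 3 were lower and 0 higher at an unadjusted p under 0.05, against 6.92% and 6.19% of all genes. ST8SIA1 is counted among the 3 and had been named by the study from these same animals. KIAA1217 had a log2 fold change of -0.39 (SE 0.10, limma, adjusted p = 0.126).

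The largest positive fold changes after SDCBP2 under the same criteria were those of ACTA2, described with the smooth muscle markers, and BTG2. BTG2, an antiproliferative immediate early gene, had values of 230 to 308 in Veh (median 266.5) and 314 to 381 in sGC (median 326.5), a log2 fold change of 0.34 (SE 0.07, limma, adjusted p = 0.0768). The glucose transporter SLC2A10 had a log2 fold change of 0.28, hexokinase HK2 one of 0.20 and the fructokinase KHK one of 0.18, and none of these passed. Fold changes between 0.17 and 0.27 were seen in FCER1G, CD84, ALG5, HS3ST5, ANXA3 and SH3GL3, which did not pass. The criteria required that their groups did not overlap. CCDC109B, a subunit of the mitochondrial calcium uniporter, had a log2 fold change of 0.72 at low values, 16 to 37 in Veh and 30 to 54 in sGC (SE 0.21, limma, adjusted p = 0.177). GABRD, the delta subunit of the extrasynaptic GABA-A receptor, had values of 344 to 502 in Veh (median 401) and 457 to 617 in sGC (median 569), with a log2 fold change of 0.41 (SE 0.10, limma, adjusted p = 0.125).

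HPA axis genes were compared to ask whether the hormone genes of the nucleus differed in the generation that had not been exposed. None of the 21 tested genes passed, and 7 were higher and 14 lower in sGC by any amount. At an unadjusted p under 0.05, 2 were higher and 0 lower, against 6.19% and 6.92% of all genes. CRH ran from 90 through 147 to 237 in Veh and from 96 through 148.5 to 210 in sGC, and the groups lay over each other. The 95% interval of its log2 fold change ran from -0.54 to 0.43. AVP ran from 6289 to 26259 in Veh and from 9654 to 16978 in sGC, with an interval from -0.56 to 0.64. OXT had 8588 ± 4878 and 8158 ± 2409 (SD, n = 6 each). The 2 genes at an unadjusted p under 0.05 were NR3C1, with values of 3391 to 3821 in Veh (median 3664) and 3813 to 3997 in sGC (median 3871), and the clock factor ARNTL (log2 fold change 0.10). NR3C1 had a log2 fold change of 0.09 (SE 0.03, limma, adjusted p = 0.201), and its groups overlapped by 1 Veh animal. NR3C2, the mineralocorticoid receptor, had a fold change of -0.07 (SE 0.05), and FKBP5, a co-chaperone that glucocorticoids induce, one of 0.11 (SE 0.13). Of 20 glucocorticoid target genes, 3 were higher at an unadjusted p under 0.05 (CEBPD 0.45, TXNIP 0.32 and CDKN1A 0.18) and 1 was lower (ERRFI1 -0.10), and none passed.

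Neuropeptide receptors, by which the nucleus reads peptide signals from the rest of the brain, were compared next. Of 51 tested receptors, 31 were lower and 20 higher by any amount, and 11 were lower and 3 higher at an unadjusted p under 0.05, where 6.92% of all genes were lower and 6.19% higher. The list median was -0.08, and none passed. In the first batch alone, 6 were lower and 6 higher, against 4.49% and 5.21% of all genes. OPRD1, the delta opioid receptor, had 172, 184 and 204 normalized counts as lowest, median and highest value in Veh and 148, 155 and 166 in sGC (log2 fold change -0.25, SE 0.06, limma, adjusted p = 0.0934). Its groups did not overlap. Also at an unadjusted p under 0.05 were the mu opioid receptor Oprm1 (-0.18), the neuropeptide Y receptors NPY5R (-0.22) and NPY2R (-0.28), the orexin receptor HCRTR1 (-0.18), the RFamide receptor NPFFR1 (-0.13), SSTR5 (-0.27), Brs3 (-0.21), GRPR (-0.58), TRHR (-0.50) and RXFP1 (-0.74). OPRL1, the nociceptin receptor, went the other way without overlap, from 3534 to 3830 in Veh and from 3893 to 4067 in sGC (log2 fold change 0.09, SE 0.02, limma, adjusted p = 0.138), and the endothelin receptor EDNRB had a fold change of 0.18.

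Of the 24 neuropeptide genes tested, 4 were lower and 2 higher at an unadjusted p under 0.05, against 6.92% and 6.19% of all genes. Galanin (GAL) ran from 294 through 538.5 to 596 in Veh and from 194 through 359 to 513 in sGC (log2 fold change -0.53, SE 0.21). The tachykinin gene TAC3 had medians of 970.5 and 724 (log2 fold change -0.36, SE 0.11), NPVF had medians of 194 and 145 (-0.90, SE 0.37), and GRP had medians of 156.5 and 76 (-0.98, SE 0.38). All 4 overlapped between the groups, and the lowest value of GAL, NPVF and GRP was that of sGC SGM21 (194, 39 and 18). Their fold changes in the first batch alone were -0.40, -0.57 and -0.62. VIP had a fold change of 0.57 at values of 16 to 36, and PENK, the enkephalin precursor, one of 0.13.

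Ion channels and vesicle proteins set the firing and release of neurons. Of 49 sodium, calcium, HCN and TRP channel genes, 41 were lower by any amount, where 51% of all genes were, 8 were lower and 0 higher at an unadjusted p under 0.05, and SCN9A passed. Among the others were CACNG7, a regulatory calcium channel subunit (log2 fold change -0.14, SE 0.04), and CACNA1G, a T-type calcium channel (-0.16, SE 0.05). The list median was -0.04, and in the first batch alone 4 were lower and 1 higher at an unadjusted p under 0.05. Synaptic vesicle and exocytosis genes were lower in 40 of 55, with 8 lower and 2 higher at an unadjusted p under 0.05 and SV2C passing. For both lists, the shares of all genes at that p-value were 6.92% lower and 6.19% higher. In the first batch alone these shares were 4.49% and 5.21%. CADPS, a priming factor for dense-core vesicles, ran from 5444 to 5720 in Veh and from 5011 to 5344 in sGC without overlap (log2 fold change -0.11, SE 0.02, limma, adjusted p = 0.0768), while its paralog CADPS2 had a fold change of 0.17. Potassium channels were evenly divided, 31 higher and 32 lower of 63, and KCNJ6, a G protein-gated channel, had a fold change of -0.14 without overlap.

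Axon guidance genes gave a like count. Of 59 tested ephrins, semaphorins, their receptors and related genes, 38 were lower and 21 higher by any amount, where 51% of all genes were lower. At an unadjusted p under 0.05, 11 were lower and 3 higher, against 6.92% and 6.19% of all genes. EPHA7 passed. EPHA4, a receptor of the same family, had medians of 927 in Veh and 791 in sGC (log2 fold change -0.20, SE 0.05, limma, adjusted p = 0.138), and the ephrin ligand EFNB2 had medians of 697 and 629.5 (-0.17, SE 0.05). The semaphorin co-receptor NRP1 had medians of 1267 and 1014 (-0.24, SE 0.06, limma, adjusted p = 0.129). PLXNB1 had a fold change of 0.10 and SLIT3 one of 0.19. Without the second batch, 7 genes of this list were lower and 3 higher at an unadjusted p under 0.05, against 4.49% and 5.21% of all genes. The list median moved from -0.05 to -0.02.

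**Figure D3:**
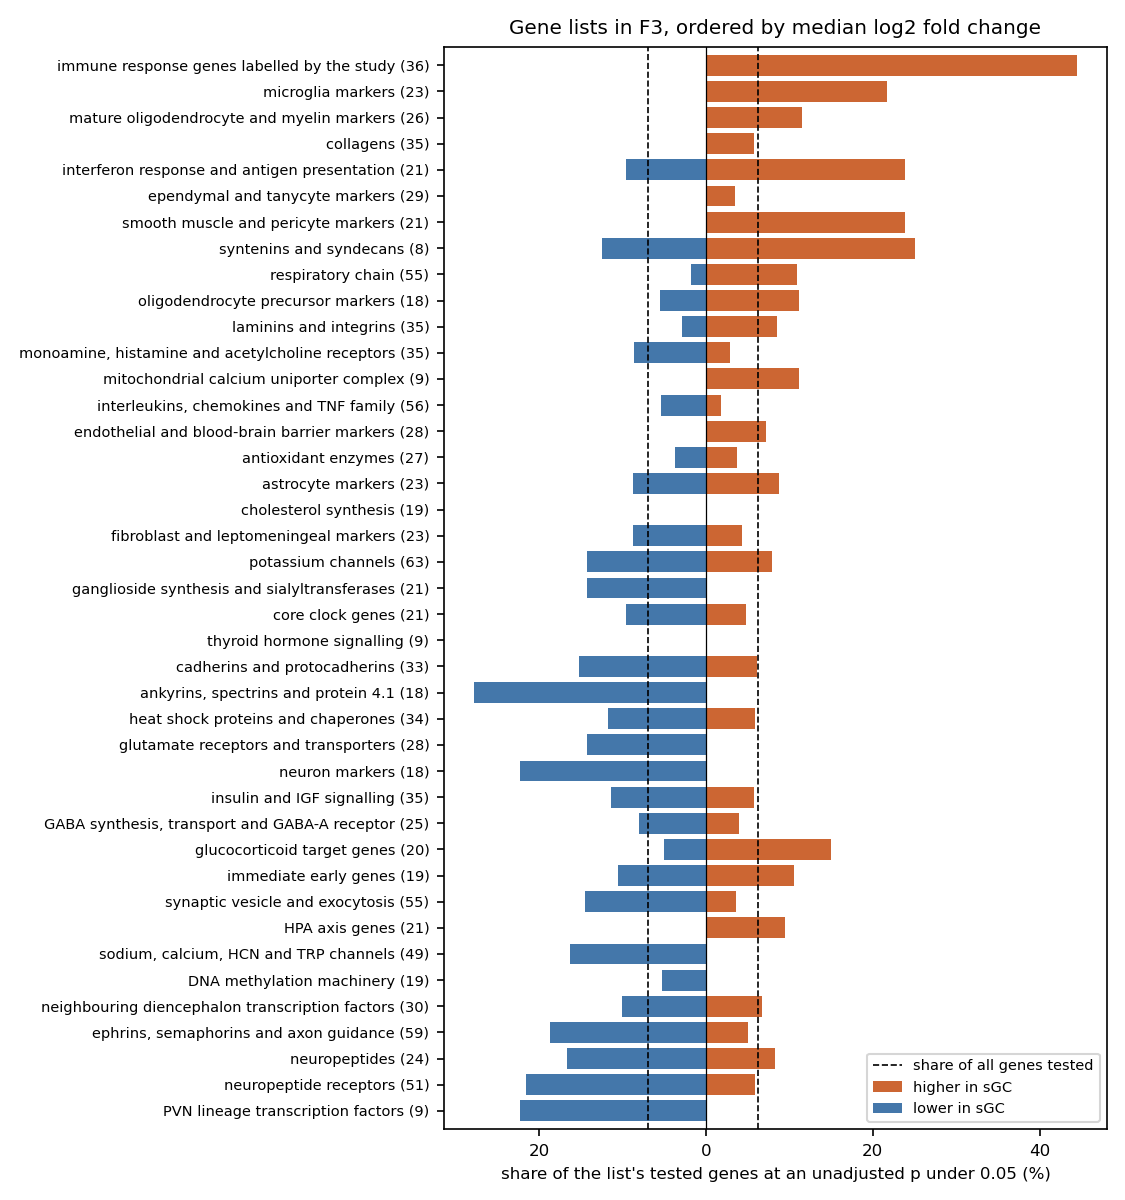
Share of each list's tested genes (number in brackets) at an unadjusted p under 0.05, in percent, higher in sGC to the right and lower to the left, with lists ordered by median log2 fold change. The dashed lines mark the shares of all 11866 genes, 6.19% higher and 6.92% lower, and the immune genes labelled by the study, which were chosen on these animals, had the longest bar.

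Of 21 tested smooth muscle and pericyte markers, 15 were higher and 6 lower in sGC by any amount, where 49% of all genes were higher. None passed. ACTA2, the smooth muscle actin, had lowest, median and highest values of 90, 131.5 and 141 normalized counts in Veh and 156, 181 and 210 in sGC (log2 fold change 0.59, SE 0.12, limma, adjusted p = 0.0768). All 6 sGC animals were above the highest Veh animal. The smooth muscle myosin MYH11 ran from 94 through 170 to 274 in Veh and from 203 through 301.5 to 396 in sGC (log2 fold change 0.87, SE 0.22, limma, adjusted p = 0.138), and the groups overlapped. TPM2 had medians of 67 and 107 (0.56, SE 0.13), TAGLN of 1332.5 and 1675 (0.33, SE 0.10) and MYL9 of 362 and 420.5 (0.24, SE 0.08). These were the 5 markers of the list at an unadjusted p under 0.05, all higher, and the same number were higher in the first batch alone. The shares of all genes that were higher at that p-value were 6.19% with all animals and 5.21% in the first batch alone. The list had a median of 0.03, and desmin (DES) had medians of 67.5 in Veh and 68 in sGC. The summed level of the 21 markers was 11631 to 13040 in Veh and 12439 to 14008 in sGC. Endothelial markers had a median of 0.01, with 2 of 28 higher and 0 lower, and a part of vessel content in the 5 genes was not tested.

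Microglia are the resident immune cells of the brain. Of 23 microglia markers, 19 were higher and 4 lower by any amount, with a median of 0.08, and 5 were higher and 0 lower at an unadjusted p under 0.05, in all animals and in the first batch alone. Of all genes, 49% were higher by any amount. At an unadjusted p under 0.05, 6.19% of all genes were higher with all animals and 5.21% in the first batch alone. GPR34, a lysophospholipid receptor of microglia, had values of 189, 209.5 and 253 in Veh and 238, 274.5 and 293 in sGC (log2 fold change 0.32, SE 0.07, limma, adjusted p = 0.0964). FCER1G, the signalling chain of Fc receptors, ran from 116 to 140 in Veh and from 143 to 177 in sGC without overlap (0.27, SE 0.07, limma, adjusted p = 0.125), and INPP5D, a phosphatase of myeloid cells, from 264 to 296 and from 304 to 335, also without overlap (0.15, SE 0.04, limma, adjusted p = 0.171). TYROBP, the adaptor of TREM2, had a fold change of 0.18 and the myeloid factor IRF8 one of 0.25. Markers that define microglia had less certain differences, CX3CR1 with 0.12 (SE 0.08), P2RY12 with 0.14 (SE 0.08), AIF1 with 0.05 (SE 0.08) and TMEM119 with -0.10 (SE 0.15). The summed level of the 23 markers was 5860 to 7020 in Veh and 6372 to 7201 in sGC.

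The immune response genes that the study labelled were chosen on these same animals, and their direction is therefore not independent evidence. Of 39 such genes 36 were tested, all 36 higher by any amount, and 16 were higher at an unadjusted p under 0.05, of which 0 passed (10 in the first batch alone). CST7, a cysteine protease inhibitor of myeloid and cytotoxic cells, had medians of 571.5 in Veh and 655 in sGC (log2 fold change 0.24, SE 0.05, limma, adjusted p = 0.0797). SOCS5, a suppressor of cytokine signalling, ran from 1484 to 1625 in Veh and from 1646 to 1789 in sGC without overlap (0.13, SE 0.03, limma, adjusted p = 0.0964). TLR7, a receptor for single-stranded RNA, had a fold change of 0.33 (SE 0.11), and CD86, a co-stimulatory molecule, one of 0.34 (SE 0.14). In the list of interferon response and antigen presentation genes, which was not taken from the study, 13 of 21 were higher, 5 of them at an unadjusted p under 0.05 (IRF1, CD74, STAT2, TAPBP and B2M, from 0.10 to 0.20), and 2 were lower, OAS3 (-0.63, SE 0.20) and DDX58 (-0.09). Of 56 interleukin, chemokine and TNF family genes, 1 was higher and 3 lower. The shares of all genes at an unadjusted p under 0.05 were 6.19% higher and 6.92% lower. The labelled list shared CD74 and TAPBP with the interferon list and IRF8, LY86 and TREM2 with the microglia list, and it shared CCR2, IL18, IL1R2, IL2RG, IL6ST and TNFRSF14 with the interleukin list.

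**Figure D4:**
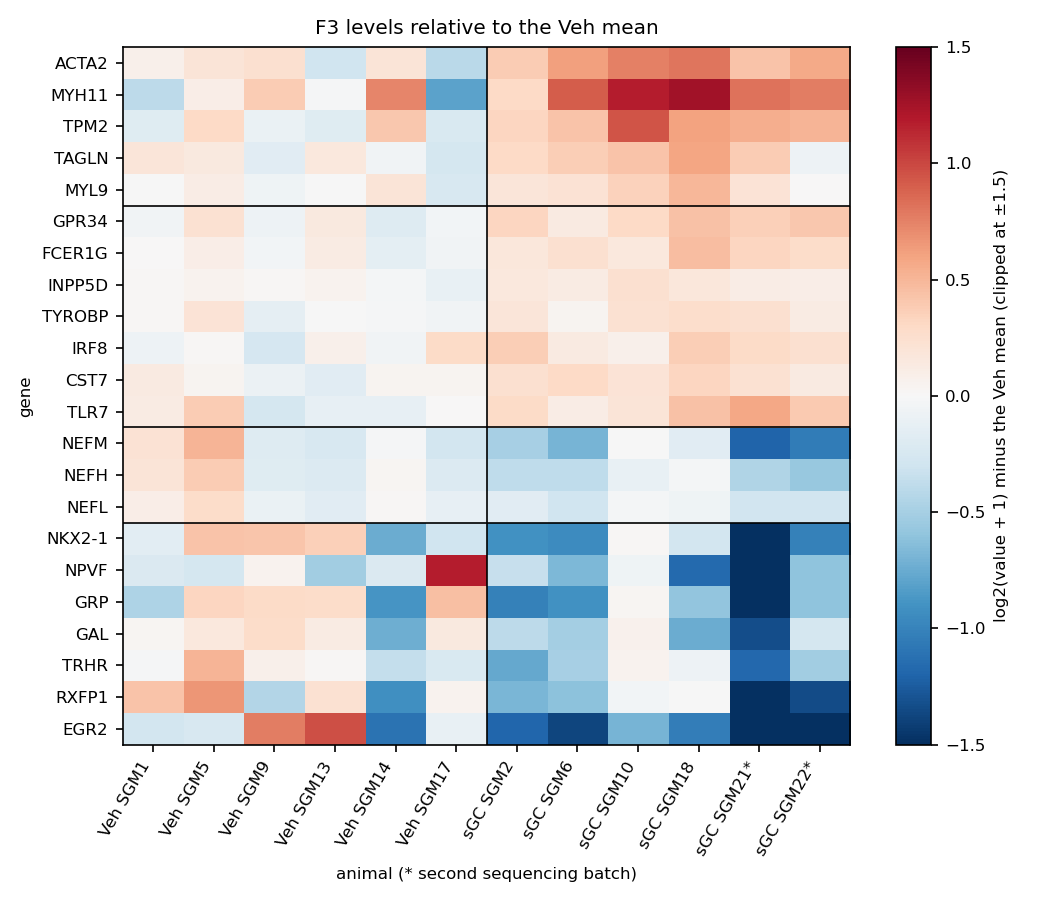
Level of selected genes in each of the 12 F3 animals as log2(value + 1) minus the mean of the 6 Veh animals (colour scale, clipped at 1.5 in both directions, red for higher), in blocks of smooth muscle genes, microglial and immune genes, neurofilaments, and peptide, receptor and transcription factor genes. sGC SGM21 had the lowest value of every gene in the lowest block, while every sGC animal was above the Veh mean in ACTA2. The genes were selected by hand, so the blocks do not stand for their lists. TAC3 and OPRD1 (lowest in sGC SGM10) and NPY5R (lowest in sGC SGM2) were also lower and are not shown. The microglia markers CX3CR1, P2RY12, AIF1 and TMEM119 are not shown either.

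Among neuron markers the neurofilaments had the most negative fold changes. NEFM, the medium chain, ran from 3533 through 3991.5 to 6076 normalized counts in Veh and from 1865 through 2832 to 4270 in sGC (log2 fold change -0.60, SE 0.19, limma, adjusted p = 0.215). NEFH, the heavy chain, had medians of 4295.5 and 3473.5 (-0.32, SE 0.11), and NEFL, the light chain, of 13385 and 11763.5 (-0.19, SE 0.07). The ranges of all 3 chains overlapped between the groups, and both animals of the second batch had the lowest NEFM values (1865 and 2073). In the first batch alone NEFM had a fold change of -0.34 and NEFH one of -0.23, and 0 of 18 neuron markers were at an unadjusted p under 0.05 there, against 4 lower with all animals. Among all genes, 6.92% were lower with all animals and 4.49% in the first batch alone. MAP2, the dendritic microtubule protein, had a fold change of 0.02 (SE 0.03).

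Of the 53 genes with a fold change over 1.5, 3 did not overlap between the groups (SDCBP2, ACTA2 and EBF3), and SDCBP2 passed. Of 40 genes that were lower by more than 1.5 fold, 32 had their lowest sGC value in sGC SGM21. The cut was taken on means that include sGC SGM21, so genes with extreme values there enter the set more readily. The same share over all genes was not counted. EGR2, an immediate early transcription factor, had values of 17 to 75 in Veh (median 33.5) and 2 to 23 in sGC (median 15), a log2 fold change of -1.61 (SE 0.46, limma, adjusted p = 0.177) that was -1.07 in the first batch alone. NKX2-1, a transcription factor of the ventral hypothalamus that borders the PVN, ran from 206 through 376 to 465 in Veh and from 61 through 181.5 to 351 in sGC (-0.93, SE 0.34, limma, adjusted p = 0.265), with 61 in sGC SGM21, and had a fold change of -0.53 in the first batch. FOXB1, a factor of the caudal hypothalamus and chosen after its values were seen, had 324 to 559 in Veh and 72 to 350 in sGC (-1.09, SE 0.30, limma, adjusted p = 0.167; -0.67 in the first batch), with 72 in sGC SGM21. Of 30 transcription factors of the neighbouring diencephalon, 3 were lower (NKX2-1, LEF1 and ISL1) and 2 higher (SIX3 0.22 and ZIC4 0.45) at an unadjusted p under 0.05. The shares of all genes were 6.92% lower and 6.19% higher. The PVN list had 9 of 9 genes lower by any amount, with a median of -0.11, where 51% of all genes were lower. RGS4 (-0.23) and PEG3 (-0.15) were the 2 at an unadjusted p under 0.05, and neither is a factor specific to the PVN lineage. The part of punch position in these differences was not tested.

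A pair of dopaminergic genes, likewise chosen after their values were seen, had positive fold changes. Tyrosine hydroxylase (TH) had 272 to 822 in Veh and 605 to 1445 in sGC (log2 fold change 0.64, SE 0.25, limma, adjusted p = 0.298), and the dopamine transporter SLC6A3 had 9 to 41 and 24 to 94 (0.98, SE 0.34, limma, adjusted p = 0.238). Both overlapped between the groups.

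Other gene groups had small median fold changes. For comparison, 49% of all genes were higher by any amount. At an unadjusted p under 0.05, 6.19% of all genes were higher and 6.92% lower, and 5.21% and 4.49% in the first batch alone. Respiratory chain genes were higher in 46 of 55 by any amount with a median of 0.03, and 6 were higher and 1 lower at an unadjusted p under 0.05, among them NDUFB4 (0.11, SE 0.03) and SDHC (0.10, SE 0.03). In the first batch alone 2 were higher and 1 lower. The median of the respiratory chain list was -0.148 in F1 and -0.149 in F2, where all genes had medians of 0.066 and -0.076. Mature oligodendrocyte and myelin markers had a median of 0.07 with 3 of 26 higher and 0 lower, among them OPALIN (0.23, SE 0.10). Ependymal and tanycyte markers had 1 of 29 higher with all animals and 9 of 29 in the first batch alone, where the median moved from 0.04 to 0.16. Astrocyte markers were at 0.01 with 2 of 23 higher and 2 lower. Of 34 heat shock and chaperone genes, 4 were lower and 2 higher, and BAG3, a co-chaperone, ran from 554 to 620 in Veh and from 518 to 545 in sGC without overlap (-0.17, SE 0.03, limma, adjusted p = 0.0768). IRS4, an insulin receptor substrate of the hypothalamus, ran from 1032 to 1157 and from 862 to 1026 without overlap (-0.22, SE 0.05, limma, adjusted p = 0.079). ADRA2A, an inhibitory adrenergic receptor, had medians of 372.5 and 307.5 (-0.28, SE 0.06, limma, adjusted p = 0.0824). Immediate early genes, which mark recent neuronal activity, were lower in 13 of 19, with 2 lower (EGR2 and KLF4, -0.30) and 2 higher (BTG2 and ARC, 0.14) at an unadjusted p under 0.05. GABA genes had 1 higher and 2 lower of 25, and glutamate receptors and transporters 0 higher and 4 lower of 28, among them GRIN2A (-0.29). Insulin and IGF genes were lower in 25 of 35, with 4 lower and 2 higher, and DNA methylation genes were lower in 14 of 19 by any amount. Collagens were higher in 23 of 35, with 2 higher and 0 lower. Laminins and integrins had 3 higher and 1 lower of 35, cadherins 2 and 5 of 33, and core clock genes 1 and 2 of 21. Cholesterol synthesis genes numbered 19, with 0 at an unadjusted p under 0.05 and a median of 0.003.

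The F3 effect was then compared with that in F1 and F2, each taken from its own table, to ask whether the F3 difference matched that of the exposed generation. The difference of effects passed for 419 of 11539 genes between F3 and F1 (3.63%), 32 of them more positive and 387 more negative in F3, and for 177 of 11638 between F3 and F2 (1.52%), 167 more positive and 10 more negative. These splits moved with scaling. With size factors the F3 minus F1 count was 2538, 1302 more positive and 1236 more negative, and the F3 minus F2 count was 201, 121 and 80. Without the second batch the counts were 102 and 49. The fit shared a residual variance per gene between the generations. The median SE of the effect was 0.047 in F3, 0.136 in F1 and 0.102 in F2. The p-values of the differences can therefore be too small.

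The 6 genes that passed in F3 were chosen by their F3 values, and the study had named KIAA1024 from both F1 and F3. Their differences between generations are therefore not independent evidence. KIAA1024 had a log2 fold change of 0.64 (SE 0.16) in F1, 0.01 (SE 0.18) in F2 and -0.30 in F3, and the F3 effect was 0.94 below that of F1 (difference -0.94, SE 0.16, limma, adjusted p = 0.00143). SV2C had 0.37 in F1 (difference -0.72, SE 0.20, limma, adjusted p = 0.0459) and ANKS1A had 0.27 (difference -0.47, SE 0.11, limma, adjusted p = 0.019). Without the second batch neither of these differences passed (limma, adjusted p = 0.0997 and 0.066). SDCBP2 had fold changes of 0.10 (SE 0.26) in F1 and 0.59 (SE 0.40) in F2, and the differences of 1.00 and 0.51 did not pass (limma, adjusted p = 0.0693 and 0.574). Its difference from F1 passed with size factors (1.07, limma, adjusted p = 0.0142) and not without the second batch (0.99, limma, adjusted p = 0.165). The differences for EPHA7 (-0.76, limma, adjusted p = 0.0943) and SCN9A (-0.27, limma, adjusted p = 0.179) did not pass either. Between F3 and F2 none of the 6 genes differed by the test. ANKS1A did with size factors (-0.27, limma, adjusted p = 0.033) and not without the second batch (-0.20, limma, adjusted p = 0.403).

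Among genes that the study named, the difference from F1 passed for ANK1 (-0.83), ST8SIA1 (-0.84), EXPH5 (-1.18), SPTB (-0.79), KIAA1217 (-1.08), CCDC109B (2.24) and GABRD (0.91), with adjusted p-values from 0.000433 to 0.022 (limma). All 7 also passed with size factors and without the second batch. The shared residual variance can make these p-values too small. For ST8SIA1 the SE of the difference was 0.1156, below the SE of 0.1395 of the F1 effect alone. The 7 genes had been picked by the study from these animals, so these differences are not independent evidence. The opposite directions in F1 and F3 are given as a description. ACTA2 was not tested in F1 or F2. Across all shared genes the log2 fold changes of F3 and F1 had a Pearson r of -0.201 and a Spearman rho of -0.214 (11539 genes), and those of F3 and F2 had -0.0416 and -0.0983 (11638 genes). Genes are not independent replicates, and these values are a description.

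**Figure D5:**
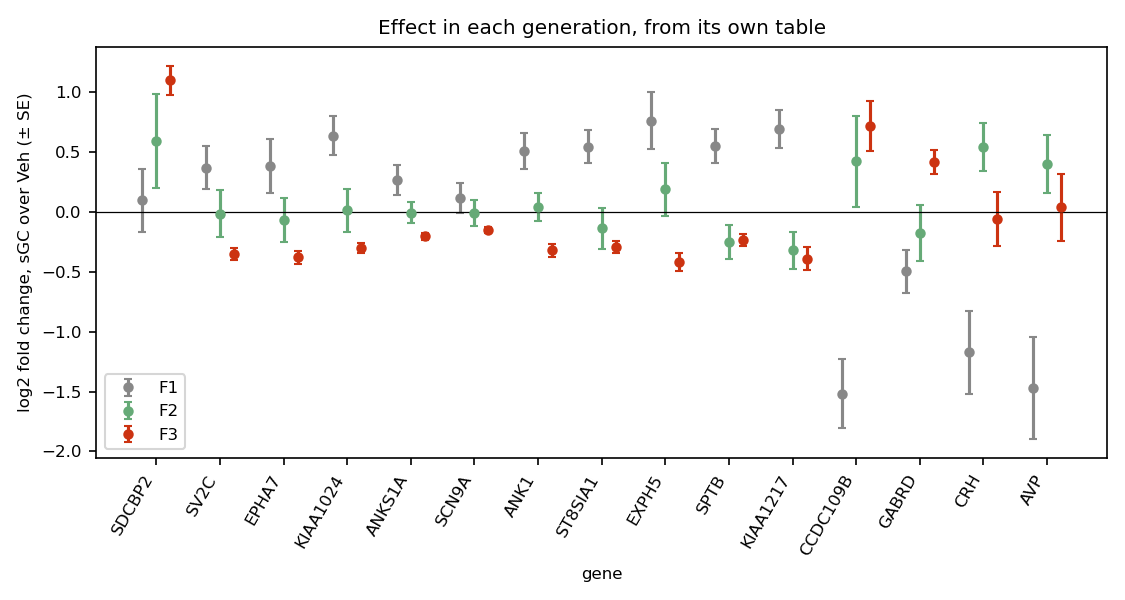
Log2 fold change of sGC over Veh with its standard error (vertical axis) in F1 (grey), F2 (green) and F3 (red) for the 6 genes that passed in F3 and 9 genes that the study named or measured. KIAA1024 lay at 0.64 in F1 and -0.30 in F3, SDCBP2 at 0.10, 0.59 and 1.10, and the F3 error bars were the shortest of the 3 generations except for CRH and AVP.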

How the data were processed

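RNA from the PVN punches was sequenced in 34 libraries, of which the 12 of F3 were compared here and the 20 of F1 and F2 served for the difference of effects. The remaining 2 were technical repeats of F3 libraries, are not in the F3 table and were not used. By the study's methods and the submitters' processing notes, the authors aligned reads with TopHat2 to the cavPor3 build, counted them per gene with GenomicAlignments, corrected the F3 sequencing batches with ComBat, normalized with residuals in RUVSeq and tested with edgeR. The study's methods also describe a removal of outliers by Cook's distance before the normalization. The deposited values are whole numbers made by the authors after these corrections, so they were handled as a score and not as raw counts, and no count test was run. The tables also hold the authors' own log2 fold changes, average log2 CPM, p-values and related columns, which were not used. The within-group residuals of the F3 values spanned 8 of 10 dimensions. That the upstream correction removed 2 directions was inferred from this, since the number is not given in the sources used here, and p-values that count 10 residual degrees of freedom can be too small.

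Values were taken as log2(value + 1), genes with a mean of at least 10 were kept, and groups were compared with limma 3.58.1 in R 4.3.3 (trended empirical Bayes, two-sided, Benjamini-Hochberg over all genes, threshold 0.05). For the difference between generations, the groups of both tables were fitted together and the difference of the sGC effects was tested. That fit assumed the same residual variance in both generations, although F3 values spread less, so its p-values can be too small. The F3 comparison was tried first on simulated data with independent noise, which did not imitate the missing directions. The difference between generations was not simulated. Named genes were those that passed, the 12 largest positive and 12 largest negative log2 fold changes among genes with a mean of at least 50, an unadjusted p under 0.01 and no overlap, the genes the study names for F3, and in each gene list the members with the smallest p-values. The members and lists were chosen with earlier results of these data known. Row names that a spreadsheet had turned into dates (19 genes) were not named. Some list members that the rule would name are not reported here. Alternatives were other scalings, pseudocounts (0.5 and 5), filters, the variance prior, the sequencing batch, the removed directions and leaving out each animal. The labels do not say whether animals came from separate litters. The study's methods state that its sample sizes count independent litters, which the labels cannot show. The p-values measure the spread between these animals. Normalized totals are not raw depth, and the counting error behind each value is unknown.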

Additional observations from a re-analysis of the deposited data

Results flagged for a closer look

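In 174 groups of 6 animals examined with Dixon's test, 9 held an animal apart from the others, where about 8.7 would be set apart by chance at 1 in 20. All levels are log2(value + 1). EBF3 was at 9.73 in Veh SGM17 against 8.785 to 8.901 in the other Veh animals, and EGR2 at 1.585 in sGC SGM21 against 3.585 to 4.585. sGC SGM18 held 4 of the 9, with PIM1 at 6.19 (others 6.443 to 6.57), NRP1 at 10.2 (9.934 to 10.01), VIP at 4.585 (5 to 5.209) and ST8SIA5 at 9.815 (9.589 to 9.658). TAC3 was at 9.931 in sGC SGM2 (9.351 to 9.568). The mean level of endothelial markers was 9.001 in Veh SGM5 (8.889 to 8.927), and that of astrocyte markers was 12.14 in sGC SGM21 (12.22 to 12.26).

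The sGC effect differed between F3 and F1 by the test of the difference (limma) in 20 of the genes that the naming rule gave, which had been chosen by their F3 values or by the study. The F3 effect was more negative by these differences on the log2 scale: SV2C -0.72, EBF3 -0.9725, ANK1 -0.8313, KIAA1024 -0.9384, EXPH5 -1.177, ST8SIA1 -0.8358, ANKS1A -0.4736, KIAA1217 -1.08, ADRA2A -0.7623, SPTB -0.7873, NRP1 -0.9024, ST8SIA5 -0.6572, CACNG7 -0.422, NKX2-1 -1.804, NEFH -0.7445, the glutamine synthetase gene GLUL -0.6123, PDCD6IP -0.3758 and MAP2 -0.4598. It was more positive for GABRD (0.9103) and CCDC109B (2.236). Without the second batch 9 of the 20 still passed (ANK1, KIAA1024, EXPH5, ST8SIA1, KIAA1217, SPTB, NRP1, GABRD and CCDC109B). Outside the rule, the difference also passed for RXFP1 (-2.07), MYO5B (-2.09), TRHR (-1.33), Oprm1 (-0.59), EPB41 (-0.50), NR3C2 (-0.44) and ANK2 (-0.40), and of these RXFP1 and TRHR passed without the second batch.

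Between F3 and F2 the effect was more positive in F3 for SH3GL3 (0.3806), ALG5 (0.3429), HS3ST5 (0.6072), the laminin LAMA2 (0.6016), the oligodendrocyte genes OPALIN (1.014) and SOX10 (0.7106), CDH19 (1.02), PLXNB3 (0.4842) and ST6GAL1 (0.7142). Of these 9, HS3ST5 and SOX10 still passed without the second batch (limma, adjusted p = 0.0143 each). Outside the rule, NPFFR1 was more negative in F3 than in F2 (-0.43, limma, adjusted p = 0.0402). The F3 animals are shared by both comparisons.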

How the results depend on the processing

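The count of 6 genes in F3 became 5 with size factors, 6 with quantile scaling, with either other pseudocount or with no filter, and 9 with a mean of at least 50. It was 10 with empirical Bayes without a trend, 2 in the first batch alone, 3 with batch as a covariate and 1 with the inferred removed directions as covariates, where fewer residual degrees of freedom remain. Leaving out 1 animal gave 1 to 15 genes: 15 without sGC SGM18, 13 without Veh SGM14, 3 without sGC SGM10 or SGM2, 2 without Veh SGM17, and 1 without Veh SGM1, SGM5, SGM9 or SGM13 or sGC SGM6 or SGM21. The cause was not tested. F3 minus F1 went from 419 genes to 2538 with size factors and 102 in the first batch alone, and F3 minus F2 from 177 to 49 in the first batch alone. Leaving out 1 animal turned the sign of AVP (-0.166 to 0.247) and CRH (-0.199 to 0.0782). No other named gene in the table changed sign. No paired analysis was possible because the Veh and sGC animals of F3 share no animal number. Batch and treatment cannot be told apart for sGC SGM21 and SGM22 beyond the first batch values, since the table holds no Veh library of the second batch.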

Other observations

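Several genes with large fold changes that the naming rule did not cover were chosen after their values were seen, and none passed. The carbonic anhydrase gene Ca3 had a mean of 1761 normalized counts in Veh and 904.5 in sGC (log2 fold change -1.03, and -0.74 in the first batch alone). LIX1 had means of 362 and 199 (-0.96, and -0.64), and the unconventional myosin MYO5B 474 and 244 (-1.16, and -0.57). The transcription factor OTX1 had means of 49.5 and 21.8 (-1.33, and -1.17), and TBX3, a T-box factor on the list of neighbouring diencephalon, 173.5 and 106 (-1.25, and -0.17). CCDC84 had means of 107 and 206 (1.02).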
